A study of Mus musculus with 12 samples.

Results

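The 10 genes described here are expressed by, or act on, the endothelial cells that line the blood vessels of the kidney. They were taken by gene symbol from a table of 45777 mouse genes, and all 10 were present and passed the filter on low counts that left 18730 genes for testing. Pecam1 and Cdh5 encode the junction proteins PECAM-1 and VE-cadherin. Kdr and Flt1 encode the VEGF receptors VEGFR2 and VEGFR1, and Vegfa encodes their ligand. Tek and Tie1 encode the angiopoietin receptor TIE2 and its partner TIE1. Emcn encodes the sialomucin endomucin, Ehd3 an endocytic protein that in the mouse kidney marks the glomerular endothelium, and Plvap the diaphragm protein of fenestrated capillaries. Vegfa differs from the other 9 in that its RNA is made mainly by podocytes and tubule cells, so it was not read as a marker of endothelial cells.

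Bulk RNA of whole kidneys was sequenced from male wild-type C57BL/6 mice, as 12 libraries in 4 groups of 3. The normal group received neither cisplatin nor vesicles. The PBS, EV200 and EV400 groups all received cisplatin, a DNA-damaging chemotherapy drug that is toxic to kidney tubules, at 9 mg/kg into the peritoneum once a week for 5 cycles. They were then injected into a vein 5 times, 3 days apart, with phosphate-buffered saline, or with 200 µg or 400 µg of extracellular vesicles from iMSC (the labels' abbreviation of the source cells), and kidneys were taken 3 days after the last injection. The labels call the 3 libraries of each group biological replicates. No label says in so many words that each library came from its own mouse. The p-values thus measure only the spread between these samples, and whether that is wholly a spread between mice is not stated. No group received vesicles without cisplatin. Every vesicle group is compared with the same PBS libraries, and PBS and both vesicle groups with the same normal libraries, so these comparisons are not independent.

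In the kidney, VEGF-A from podocytes and tubule cells acts on VEGFR2 in the neighbouring capillaries, where it sustains survival and fenestration of the endothelium. VEGFR1 binds the same ligand tightly and limits how much of it reaches VEGFR2. TIE2, with TIE1 at its side, answers the angiopoietins and keeps vessels quiescent. Loss of peritubular capillaries is a known feature of progressive kidney damage, which makes these genes natural readouts in a model of repeated cisplatin injury.

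The start regions of the VEGF ligand, its receptors and Emcn are shown because the levels of Vegfa, Kdr and Flt1 correlated by Pearson's r. After adjustment, these pairs did not pass by Spearman's rho or within groups, as given below. Emcn had a negative r with each of these genes. Each sequence is the 250 bases before a RefSeq transcript start on build GRCm38.p6, 5′ to 3′ on the strand of the gene. Capitals mark AGGAAG or CGGAAG, which are among the sequences that ETS factors bind, and GGGCGG, the core bound by SP1. They were searched on both strands with each match counted separately.
Vegfa: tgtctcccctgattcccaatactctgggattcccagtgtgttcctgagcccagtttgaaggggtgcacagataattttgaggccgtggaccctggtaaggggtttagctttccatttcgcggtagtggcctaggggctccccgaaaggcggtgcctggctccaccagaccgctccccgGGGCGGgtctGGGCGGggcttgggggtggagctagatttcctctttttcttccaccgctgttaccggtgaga
Kdr: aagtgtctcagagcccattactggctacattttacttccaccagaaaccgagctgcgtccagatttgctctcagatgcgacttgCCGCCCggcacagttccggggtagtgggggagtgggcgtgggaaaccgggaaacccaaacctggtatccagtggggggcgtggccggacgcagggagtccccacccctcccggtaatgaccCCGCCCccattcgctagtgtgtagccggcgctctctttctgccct
Flt1: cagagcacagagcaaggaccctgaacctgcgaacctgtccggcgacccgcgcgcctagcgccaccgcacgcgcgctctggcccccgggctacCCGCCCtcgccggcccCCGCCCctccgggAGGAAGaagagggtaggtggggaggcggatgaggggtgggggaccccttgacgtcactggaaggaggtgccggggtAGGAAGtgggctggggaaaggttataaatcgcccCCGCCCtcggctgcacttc
Emcn: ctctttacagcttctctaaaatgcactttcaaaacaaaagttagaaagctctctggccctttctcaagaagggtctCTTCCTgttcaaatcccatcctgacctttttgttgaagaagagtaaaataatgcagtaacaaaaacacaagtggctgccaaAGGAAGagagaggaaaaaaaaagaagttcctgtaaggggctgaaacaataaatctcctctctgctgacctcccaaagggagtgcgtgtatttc
The windows lie at chr17:46032378-46032627 for Vegfa, chr5:75978456-75978705 for Kdr and chr5:147726012-147726261 for Flt1, all on the minus strand, and at chr3:137340828-137341077 on the plus strand for Emcn. Those of Kdr and Flt1 lie within the RefSeq gene spans given below, and that of Emcn runs into its span. The starts used for these genes are thus not the outermost ones. GGGCGG was found 2 times in the Vegfa window, 2 times in that of Kdr, 3 times in that of Flt1 and 0 times in that of Emcn. AGGAAG or CGGAAG was found 2 times each in the Flt1 and Emcn windows and 0 times in those of Vegfa and Kdr. Other sequences that ETS factors bind were not searched, so 0 does not mean that a window lacks them. Of 32851 mouse promoter windows of the same length, 32.7% held GGGCGG and 39.2% held AGGAAG or CGGAAG, so both are common. Guanine and cytosine made up 59.2%, 61.6% and 70.4% of the Vegfa, Kdr and Flt1 windows and 40.8% of that of Emcn. GENCODE vM21 places 3 bases of the Kdr window and 11 of the Emcn window within an exon, and none of the Vegfa and Flt1 windows. A match is a description of the letters and no evidence of binding.

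On build GRCm38.p6, RefSeq places Pecam1 at chr11:106654213-106715281, Kdr at chr5:75932827-75979072, Flt1 at chr5:147561604-147726438, Tie1 at chr4:118471191-118489849, Plvap at chr8:71497753-71511806 and Vegfa at chr17:46016993-46032377, all on the minus strand. Cdh5 lies at chr8:104101613-104144504, Emcn at chr3:137341062-137431069, Ehd3 at chr17:73804841-73832093 and Tek at chr4:94739086-94874976 on the plus strand. No exon of the 10 overlaps an exon of another gene in GENCODE vM21.

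Levels were compared between genes in TPM (transcript abundance as a share of the library, scaled by length by the authors). In normal kidneys Vegfa was highest at 118 ± 4.59 TPM (SD, n = 3). Plvap followed at 86.5 TPM and Emcn at 57.9 TPM. Pecam1 averaged 29.1 TPM and Kdr 28.1 TPM, and the libraries of these neighbours overlapped. Flt1 averaged 18.4 TPM. Ehd3 at 14.9 TPM, Tie1 at 14.6 TPM and Tek at 14.3 TPM were neighbours whose libraries also overlapped, and Cdh5 was lowest at 12.5 TPM. Counts were high for every one of these genes: the smallest count of any of them in any library was 888, for Cdh5, and the largest 15203, for Vegfa.

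Of the 10 genes, 0 were called in any of the 6 pairwise comparisons or in the joint test of all 4 groups by the quasi-likelihood test of edgeR, where a call is a Benjamini-Hochberg adjusted p under 0.05 over all 18730 genes. DESeq2 and limma-voom called 0 of the 10 in these comparisons as well. The background is 2.74% of all genes called for PBS against normal, 0.016% for EV200 against PBS, 0.0801% for EV400 against PBS, 0.00534% for EV400 against EV200, 0.0694% for EV200 against normal, 0% for EV400 against normal, and 0.0641% in the joint test. These shares are those of edgeR, and against them 0 of 10 is no result about these genes. DESeq2 and limma-voom called more genes, 2835 and 6164 for PBS against normal and 1726 and 6634 in the joint test. Whether 0 of 10 departs from those larger counts was not tested. In the fit of all libraries, the 95% intervals of the 10 fold changes, each taken alone and resting on the spread between these libraries, reached no further than 1.58-fold for PBS against normal, 1.42-fold for EV200 against PBS and 1.61-fold for EV400 against PBS, in either direction. At an unadjusted p under 0.05, 2 of the 10 passed for PBS against normal, where 29.8% of all genes did. For EV200 against PBS 1 passed against 6.9% of all genes, and for EV400 against PBS 2 passed against 23.5%. For EV400 against EV200 2 passed against 6.34%, and for EV200 and EV400 against normal 0 passed against 13.2% and 6.98%. In the joint test 0 of 10 passed, against 19.7% of all genes, and the smallest p was that of Ehd3 (edgeR, adjusted p = 0.261).

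**Figure D1:**
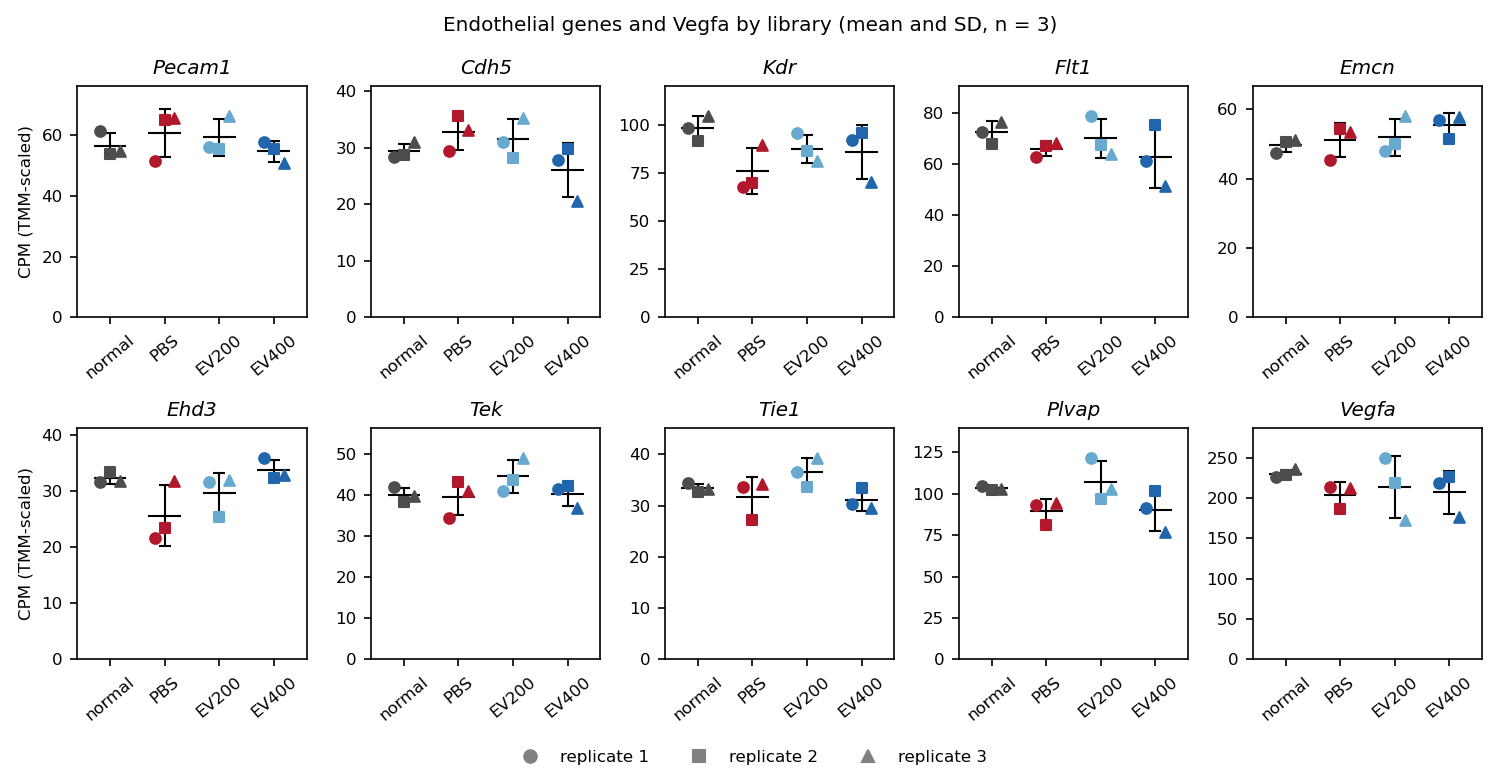
CPM (linear axis from 0) of each of the 10 genes in each of the 12 libraries, by group; points are libraries, horizontal lines group means and error bars SD (n = 3). The lowest PBS values stand out for Kdr (67.8 and 70.0 CPM against 91.7 to 104 CPM in normal) and Ehd3 (21.7 and 23.4 CPM against 31.7 to 33.4 CPM), while Pecam1, Tek and Tie1 overlap between PBS and normal.

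The pan-endothelial junction genes Pecam1 and Cdh5 averaged slightly higher in PBS than in normal, within the spread of the libraries. Levels within a gene are given in CPM, counts per 1 M of the TMM-normalized library size. Pecam1 stood at 61.3, 53.7 and 54.6 CPM in normal 1 to 3 and at 51.5, 64.8 and 65.5 CPM in PBS 1 to 3. The PBS libraries thus spanned the normal ones on both sides, with a log2 fold change of 0.10 (SE 0.11; edgeR, adjusted p = 0.554). EV200 gave 56.0, 55.3 and 66.2 CPM and EV400 57.7, 55.3 and 50.7 CPM, both overlapping normal. In bulk tissue, fewer cells of a type and less RNA per cell cannot be told apart, and neither can be read from these levels alone.

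Cdh5 stood at 28.4, 28.8 and 30.9 CPM in normal and at 29.4, 35.6 and 33.1 CPM in PBS, a log2 fold change of 0.15 (SE 0.13; edgeR, adjusted p = 0.446). Its EV200 libraries held 31.0, 28.3 and 35.3 CPM, and those of EV400 27.9, 29.7 and 20.6 CPM. EV400 averaged below PBS, with a log2 fold change of -0.33 (SE 0.13; edgeR, unadjusted p = 0.0289, adjusted p = 0.184), but the libraries overlapped and the value of EV400 3 was the lowest of all 12. Without EV400 3 the log2 fold change was -0.17 (edgeR, adjusted p = 0.517). The 3 libraries with the highest Cdh5 level, PBS 2, EV200 3 and PBS 3, are also the 3 with the highest Pecam1 level. They are likewise the 3 with the highest summed level of the 9 macrophage markers, at 647, 570 and 406 CPM against 138 to 162 CPM in normal, and of the 8 pericyte and smooth muscle markers, at 291, 249 and 264 CPM against 143 to 155 CPM. The part of these cells in the level of Pecam1, which some leukocytes also carry, was not tested.

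Kdr was the member with the smallest p for PBS against normal. It stood at 98.4, 91.7 and 104 CPM in normal and at 67.8, 70.0 and 89.6 CPM in PBS, so every PBS library lay below every normal one. The log2 fold change was -0.37 (SE 0.13; edgeR, unadjusted p = 0.0161, adjusted p = 0.0976), which did not pass over all genes. EV200 held 95.5, 86.2 and 81.0 CPM and EV400 91.9, 95.7 and 70.1 CPM, both overlapping PBS and normal. The log2 fold change against PBS was 0.21 (SE 0.13) for EV200 and 0.18 (SE 0.13) for EV400, with edgeR adjusted p-values of 0.657 and 0.400. PBS 3 and EV400 3 stood apart from their groups for Kdr, PBS 3 as the highest and EV400 3 as the lowest. With both left out, an alternative chosen after seeing the data, Kdr was called for PBS against normal at a log2 fold change of -0.50 (edgeR, adjusted p = 0.0495). Leaving out the highest PBS library enlarges the fall of Kdr by construction, so this call is no support for it. In that setting 142 of all genes were called. The quality weights of limma-voom were highest for PBS 3 (3.47) and lowest for PBS 2 (0.163). Leaving out either PBS 3 or EV400 3 alone gave no call of Kdr, at -0.51 (adjusted p = 0.0732) without PBS 3 and -0.37 (adjusted p = 0.0684) without EV400 3.

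Flt1, the other VEGF receptor, stood at 72.7, 68.0 and 76.6 CPM in normal and at 62.8, 67.1 and 68.4 CPM in PBS, which overlap. Its log2 fold change was -0.13 (SE 0.12; edgeR, adjusted p = 0.499). EV200 held 78.8, 67.6 and 64.1 CPM, and EV400 61.3, 75.5 and 51.6 CPM, the latter again with EV400 3 as the lowest of all 12 libraries. The ligand Vegfa stood at 226, 229 and 236 CPM in normal and at 214, 186 and 212 CPM in PBS, without overlap. The difference of -0.17 on the log2 scale was close to its SE of 0.13 (edgeR, adjusted p = 0.390). Vegfa was more scattered under vesicles, at 249, 219 and 172 CPM in EV200 and 218, 226 and 177 CPM in EV400, and against PBS the log2 fold changes were 0.065 and 0.021 (SE 0.13 each). For PBS against normal, 3 of the 10 genes had all PBS libraries below all normal ones in CPM. These were Kdr, Vegfa and Plvap, and 20% of all genes lay below in the same way. In TPM, which carries no TMM factor, PBS and normal overlapped for all 3, and Vegfa averaged 119 TPM in PBS and 118 TPM in normal. All PBS libraries of Cdh5 lay above all normal ones in TPM. The TMM factors were 0.94 to 0.96 in normal and 1.04 to 1.12 in PBS.

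**Figure D2:**
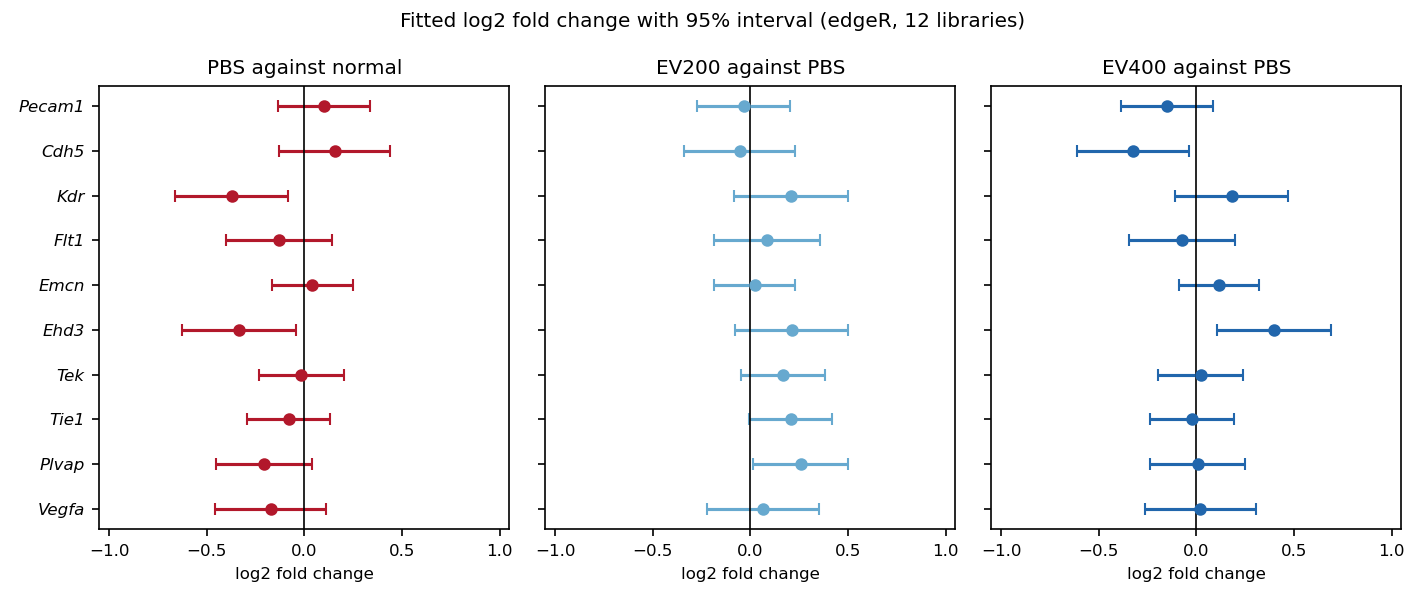
Log2 fold change with its 95% interval of each of the 10 genes (edgeR, 3 libraries a group) for PBS against normal, EV200 against PBS and EV400 against PBS. For PBS against normal the intervals of Kdr and Ehd3 lie below 0, for EV200 against PBS that of Plvap lies above 0, and for EV400 against PBS that of Ehd3 lies above 0 and that of Cdh5 below it; no adjusted p was under 0.05.

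The angiopoietin receptors differed little between PBS and normal. Tek stood at 41.9, 38.4 and 39.6 CPM in normal and at 34.4, 43.2 and 41.0 CPM in PBS, and its log2 fold change of -0.015 (SE 0.10) was the smallest of the 10 (edgeR, adjusted p = 0.938). EV200 held 40.8, 43.7 and 48.9 CPM and EV400 41.5, 42.1 and 36.9 CPM. Tie1 stood at 34.4, 32.6 and 33.3 CPM in normal and at 33.6, 27.1 and 34.2 CPM in PBS, where PBS 2 alone was low. EV200 held 36.6, 33.6 and 39.2 CPM, and EV400 30.3, 33.5 and 29.5 CPM. All EV400 libraries of Tie1 lay below all EV200 libraries, as for 5.57% of all genes, at a log2 fold change of -0.23 (SE 0.10; edgeR, unadjusted p = 0.0367, adjusted p = 0.769).

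The glomerular marker Ehd3 had the largest difference between a vesicle group and PBS. It stood at 31.7, 33.4 and 31.9 CPM in normal and at 21.7, 23.4 and 31.8 CPM in PBS, so that PBS 1 and PBS 2 were low and PBS 3 was within the normal range. The log2 fold change for PBS against normal was -0.33 (SE 0.13; edgeR, unadjusted p = 0.0276, adjusted p = 0.125). EV200 held 31.6, 25.5 and 32.0 CPM. EV400 held 35.9, 32.5 and 32.9 CPM, above every PBS library and every EV200 library, as for 12.2% and 5.1% of all genes. Against PBS, the log2 fold change of EV400 was 0.40 (SE 0.13; edgeR, unadjusted p = 0.0116, adjusted p = 0.158). Without PBS 3 the value for PBS against normal was -0.52 (adjusted p = 0.0603) and that for EV400 against PBS was 0.58 (adjusted p = 0.0763). PBS 3 was the highest PBS library, so its omission enlarges both differences by construction. Without EV400 3 the 2 values were -0.33 (adjusted p = 0.145) and 0.43 (adjusted p = 0.453). Podocyte markers, from the same glomeruli, had the opposite sign: 8 of 8 had a positive log2 fold change for PBS against normal, with a median of 0.55, and 0 of 8 were called.

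Emcn, present in capillary and venous endothelium and strong in glomeruli, stood at 47.5, 50.6 and 51.1 CPM in normal and at 45.6, 54.4 and 53.6 CPM in PBS. Its log2 fold change was 0.04 (SE 0.09; edgeR, adjusted p = 0.803). EV200 held 47.9, 50.0 and 58.1 CPM. EV400 held 57.1, 51.4 and 57.9 CPM, all above the normal libraries, as for 8.28% of all genes, with a log2 fold change against normal of 0.16 (SE 0.09; edgeR, adjusted p = 0.766).

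Plvap stood at 105, 102 and 103 CPM in normal, a very narrow range, and at 92.9, 81.2 and 94.6 CPM in PBS, below all of these. The log2 fold change was -0.21 (SE 0.11; edgeR, adjusted p = 0.234). EV200 held 121, 97.0 and 103 CPM, above every PBS library, as for 5.53% of all genes, with a log2 fold change of 0.26 (SE 0.11; edgeR, unadjusted p = 0.0413, adjusted p = 0.657). EV400 held 91.4, 102 and 76.7 CPM, level with PBS (log2 fold change 0.0056, SE 0.11) and below every normal library, as for 10.6% of all genes. EV400 also averaged below EV200, at a log2 fold change of -0.25 (SE 0.11; edgeR, unadjusted p = 0.0453, adjusted p = 0.769). EV400 3 was again the lowest library.

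**Figure D3:**
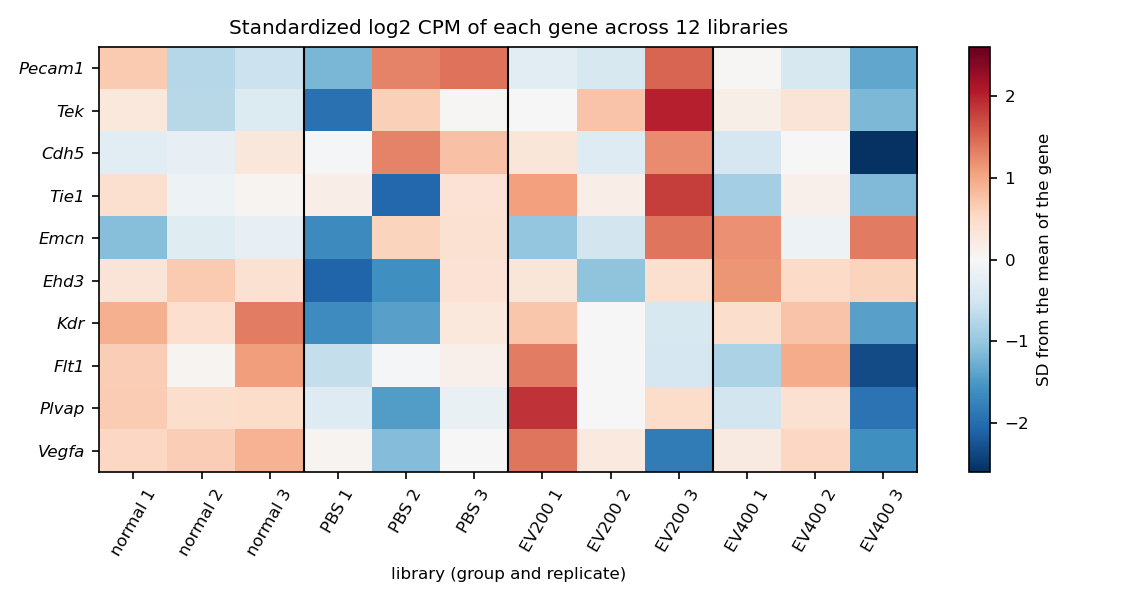
Standardized log2 CPM (mean 0 and SD 1 over the 12 libraries) of each of the 10 genes in each library, blue for low and red for high. PBS 2, PBS 3 and EV200 3 are high for Pecam1 and Cdh5, and EV400 3 is low for all but Ehd3 and Emcn.

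Since the same libraries were high or low for several genes, each gene was also set against Pecam1 within its library, which cancels library scaling. This ratio was chosen after the values were seen and is given without a test. How many of all genes separate between groups in it was not counted. The log2 ratio of Kdr to Pecam1 lay between 0.68 and 0.93 in normal and between 0.11 and 0.45 in PBS, with a mean difference of -0.48. All EV400 libraries lay above all PBS libraries, but narrowly, with EV400 3 at 0.466 and PBS 3 at 0.451. The log2 ratio of Ehd3 to Pecam1 lay between -0.95 and -0.69 in normal and between -1.47 and -1.04 in PBS, a mean difference of -0.45. In EV400 it lay between -0.77 and -0.63, a mean of 0.56 above PBS. Tek showed the same order at a smaller size, with a mean difference of -0.12 for PBS against normal. The ratios of Cdh5, Flt1, Emcn, Tie1, Plvap and Vegfa overlapped between PBS and normal. That of Emcn still lay above PBS in every EV400 library, by a mean of 0.26. A difference in such a ratio does not say which of its genes differs.

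Across the 12 libraries, 8 of the 45 pairs among the 10 genes correlated with a Benjamini-Hochberg adjusted p under 0.05 over the 45 pairs (100000 permutations), all positive by Pearson's r. Within the VEGF system these were Kdr with Flt1 (r = 0.72), Kdr with Vegfa (r = 0.73) and Flt1 with Vegfa (r = 0.74). Plvap went with Flt1 (r = 0.80), Tie1 (r = 0.79) and Kdr (r = 0.72). Pecam1 went with Tek (r = 0.75) and Cdh5 (r = 0.73), and with Kdr hardly at all (r = 0.08, permutation p = 0.804). The permutation p-values of the 8 pairs lay between 0.00241 and 0.00765 before and between 0.0414 and 0.0430 after adjustment. Spearman's rho of the 8 lay between 0.58 and 0.78, but none of the 45 pairs passed by it: the smallest adjusted permutation p was 0.0596. On deviations from the group means, r of the 8 lay between 0.66 and 0.93, and none of the 45 passed under an exact permutation within groups. Leaving out the 2 libraries farthest from the median of the first gene left r at 0.88 for Kdr with Flt1, 0.86 for Kdr with Vegfa and 0.74 for Pecam1 with Tek, but at 0.48 for Flt1 with Plvap and 0.51 for Flt1 with Vegfa, which therefore rest in part on those libraries. Emcn and Vegfa went in opposite directions (r = -0.70, adjusted permutation p = 0.0555). How often pairs of other genes correlate as strongly over these libraries was not counted.

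Among 14369 other genes with a mean of at least 1 CPM, those most like the mean standardized level of Pecam1, Cdh5, Tie1 and Tek over the 12 libraries were Grrp1 (r = 0.93), Kank3 (r = 0.92), Rbms2 (r = 0.89), Mmp28 (r = 0.89) and Crlf2 (r = 0.89). For Plvap they were Scarf1 (r = 0.92), Dazap1, Jup, Lrp5 and Add1, and for Vegfa Chrna4 (r = 0.97), Iqcd (r = 0.96), Mlxipl (r = 0.95), Sik3 and Bag6. Chrna4 averaged 84.1 CPM in normal and 66.3 CPM in PBS, and Mlxipl, a glucose-responsive transcription factor, 241 and 190 CPM. These correlations, chosen as the highest of many, describe the 12 libraries and share their depth and composition.

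The wider endothelium was read from 9 lists with 98 genes, of which 97 were tested and which include all 10 genes. For PBS against normal, 7 rose and 2 fell, 9.28% of those tested, against 2.74% of all genes, and the median log2 fold change was 0.20 against 0.0022 over all genes tested. The lists were chosen with earlier results of these data known, so the larger share and median are a description and no test of the endothelium. In the other 5 comparisons 0 of the 97 were called. The 2 that fell were Igfbp3 and Esm1. Igfbp3, an IGF-binding protein of peritubular capillaries, stood at 236, 214 and 245 CPM in normal and at 104, 106 and 175 CPM in PBS (log2 fold change -0.85, SE 0.19; edgeR, adjusted p = 0.0471). EV200 held 165, 143 and 108 CPM of it and EV400 184, 165 and 163 CPM, all overlapping PBS. Both groups lay below every normal library, as for 12.9% and 10.6% of all genes. Esm1, the secreted proteoglycan endocan that VEGF induces in endothelial cells, stood at 44.4, 40.6 and 40.4 CPM in normal and at 27.8, 23.2 and 32.8 CPM in PBS (log2 fold change -0.58, SE 0.13; edgeR, adjusted p = 0.0467). In EV400 it stood at 40.9, 40.2 and 45.7 CPM, above every PBS library, as for 12.2% of all genes. The log2 fold change was 0.60 (SE 0.13; edgeR, adjusted p = 0.100).

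Of the 9 genes of the peritubular capillary list, 1 fell and 0 rose for PBS against normal, with a median of -0.40. Its members Cd36, a fatty acid receptor, and Cyp4b1, a cytochrome that tubule cells also express, had log2 fold changes of -0.40 and -0.69 (edgeR, adjusted p = 0.0503 and 0.0602). Over the same libraries the 7 proximal tubule markers all had negative log2 fold changes, with a median of -0.50, and their part in the capillary list was not tested. In the glomerular list of 11, 1 rose, the transcription factor Tbx3, from 2.29 ± 0.194 to 4.95 ± 0.908 CPM (SD, n = 3 each). Plat, tissue plasminogen activator, had a log2 fold change of 0.87 (edgeR, adjusted p = 0.0659), opposite in sign to Ehd3 and Kdr of the same list.

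The arterial list held 1 rise among 11, that of the Notch ligand Jag1, which stood at 16.2, 16.5 and 15.6 CPM in normal and at 25.3, 37.2 and 26.5 CPM in PBS. EV400, at 18.9, 19.6 and 16.9 CPM, lay below every PBS library, as for 13.8% of all genes (log2 fold change -0.69, SE 0.17; edgeR, adjusted p = 0.127). EV200, at 20.7, 25.0 and 33.4 CPM, overlapped PBS. Jag1 is also made by injured tubule cells. The vasa recta list held 3 rises among 5: the urea transporter Slc14a1 (1.11 to 4.77 CPM), the actin-severing protein Scin (19.3 to 52.8 CPM) and the myo-inositol transporter Slc5a3 (86.9 to 151 CPM), the last of which tubule cells of the medulla also express. The other 2 genes of this list had negative log2 fold changes. Of these Aqp1, also a proximal tubule marker, stood at -0.49 (edgeR, adjusted p = 0.0744) with every PBS library below normal, as for 20% of all genes. The 6 thick ascending limb markers had 4 rises in the same comparison. The part of tubule cells in the changes of the vasa recta list was not tested. In the lymphatic list 1 of 7 rose, Mmrn1, a multimerin also stored in platelets, from 0.653 to 2.33 CPM, and the list median was 1.31. Of 3 platelet markers tested 0 were called. Pf4 had a log2 fold change of 1.68 (edgeR, unadjusted p = 0.00955, adjusted p = 0.0806) with every PBS library above normal, as for 20.3% of all genes. Itga2b and Ppbp stood at -0.51 and -0.66, and the part of platelets in Mmrn1 was not tested. Of 5 venous genes 0 were called. The activated endothelium list of 13 had 1 rise, the flow-responsive factor Klf2 (6.25 to 9.12 CPM), and the fall of Esm1, with a list median of 0.60. In the same comparison 9 of 9 macrophage markers had a positive log2 fold change, 3 of them called, with a median of 1.77, and the pericyte and smooth muscle list had a median of 0.72. The part of these cells in the lymphatic and activated lists was not tested. The 30 pan-endothelial genes, 5 of the 10 among them, had 0 calls and a median of 0.09.

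**Figure D4:**
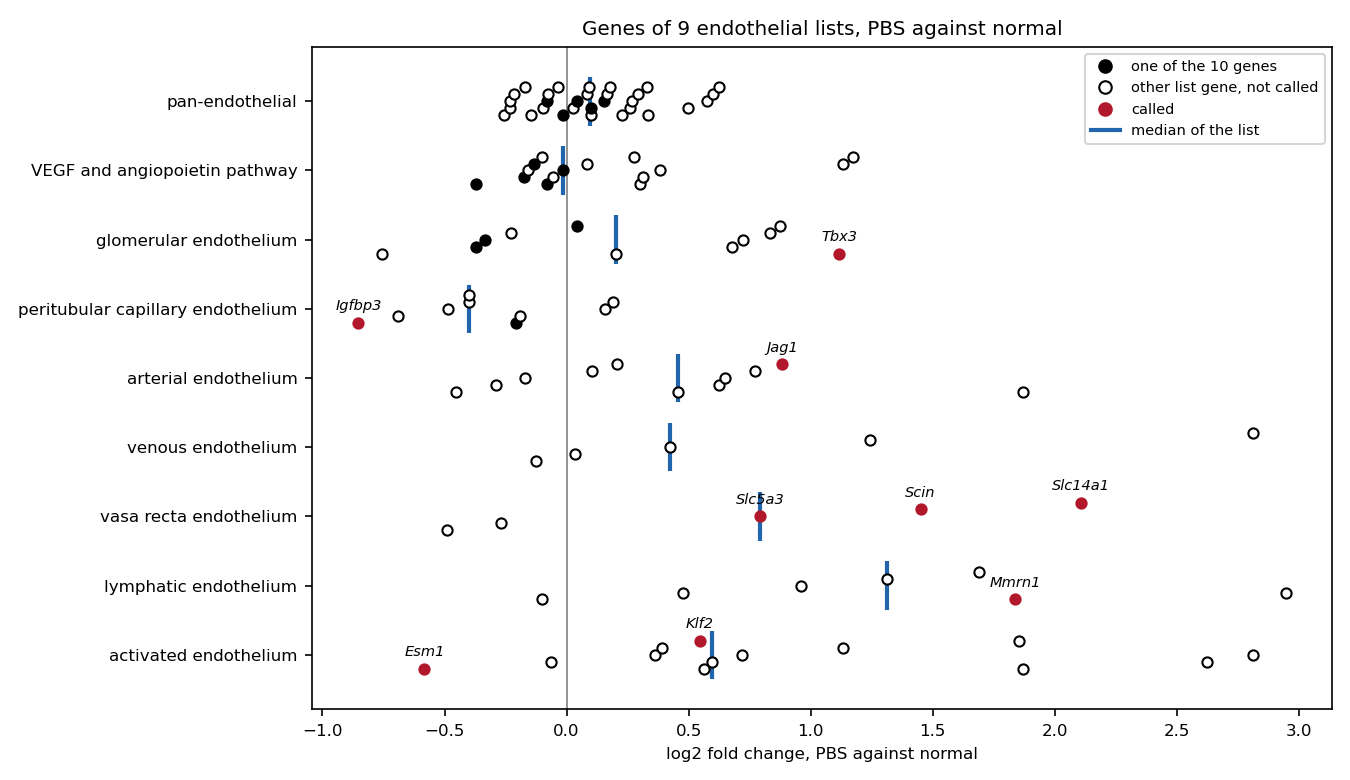
Log2 fold change of each tested gene of 9 endothelial lists for PBS against normal (edgeR, 3 libraries a group), with called genes in red, the 10 genes in black and the list median as a blue bar. The medians lie between -0.40 for the peritubular capillary list and 1.31 for the lymphatic list, with the pan-endothelial list at 0.09.

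For EV400 against PBS the list medians were -0.44 for activated endothelium, -0.72 for lymphatic endothelium and -0.64 for vasa recta, against -0.025 over all genes tested, and 0.0050 for the glomerular and 0.013 for the peritubular list. The 9 macrophage markers had a median of -0.99 in the same comparison, and their part in these medians was not tested. For EV200 against PBS the medians of these 5 lists lay between -0.27 for activated endothelium and 0.11 for peritubular capillaries. Of the peritubular list, Gpihbp1, which anchors lipoprotein lipase to capillaries, had a log2 fold change for EV400 against PBS of 0.66 (SE 0.19; edgeR, adjusted p = 0.147). Cyp4b1 of that list, which tubule cells also express, had one of 0.62 (SE 0.19; edgeR, adjusted p = 0.149). The 7 proximal tubule markers all had positive log2 fold changes in this comparison, with a median of 0.26. Their part in the level of Cyp4b1 was not tested.

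Of the 15 genes of the VEGF and angiopoietin pathway, 0 were called in any comparison, and the median for PBS against normal was -0.015. The angiopoietin Angpt2, a TIE2 ligand that destabilizes vessels, stood at 7.15, 5.69 and 3.97 CPM in normal and at 14.1, 15.8 and 6.95 CPM in PBS (log2 fold change 1.13, SE 0.36; edgeR, unadjusted p = 0.00879, adjusted p = 0.0777), and these libraries overlap. EV400 held 4.03, 7.92 and 9.04 CPM of Angpt2 and EV200 9.66, 14.9 and 17.4 CPM. Of 12 targets of the hypoxia-inducible factors, which also drive Vegfa, 1 fell and 0 rose. This was Car9, carbonic anhydrase 9, at 16.1, 19.3 and 18.5 CPM in normal and at 11.4, 5.56 and 10.8 CPM in PBS (log2 fold change -0.96, SE 0.22; edgeR, adjusted p = 0.0471). For EV400 against PBS 0 of these 12 were called. At an unadjusted p under 0.05, 3 were higher and 2 lower, where 10.9% and 12.6% of all genes were. The mitochondrial protein gene Bnip3 had a log2 fold change of 0.53 (SE 0.10; edgeR, adjusted p = 0.0767), and the stress-response gene Ndrg1 one of -0.74 (SE 0.19; edgeR, adjusted p = 0.128). Ndrg1 went from a mean of 2251 CPM in PBS to 1346 CPM in EV400. Its EV400 libraries all lay below every PBS library, as for 13.8% of all genes.

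All 9 calls among the endothelial lists remained under DESeq2, limma-voom and the fit of the compared groups alone. They depend on single libraries of several groups: 0 remained without normal 1, normal 2, normal 3, PBS 2, EV400 1 or EV400 2, 1 remained without EV200 2, and 4 remained without PBS 3. Library totals lay between 46.6 and 62.1 M counts. PBS 3 held 46.5 CPM of adipocyte markers in sum, against 0 to 1.24 CPM in the other libraries, and the summed macrophage markers lay above normal in every PBS library. All 5 erythroid genes tested fell for PBS against normal, with a median log2 fold change of -1.19, and 0 of 5 were called for either vesicle group against PBS (median 0.97 for EV200 and 1.18 for EV400). The part of these cells in the levels of the 10 genes was not tested.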

How the data were processed

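Libraries were made from poly(A) RNA with a kit that keeps the strand, per the labels' protocols. The submitters' processing notes name HISAT2 2.1.0, StringTie 2.1.3b, Trimmomatic 0.38 and FastQC 0.11.7, and the genome as GRCm38 or mm10. What program counted reads, with which strand rule and gene annotation, is not given in the sources used here. In 1 table the authors deposited read counts per gene, whole numbers used as they stand, and TPM values, which they scaled by length. Its 12 columns of FPKM stayed unused. TPM served to order levels between genes and to set the separation of PBS from normal in CPM beside it.

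Counts of all 12 libraries entered 1 fit of the quasi-likelihood test in edgeR 4.0.16 (R 4.3.3), with TMM factors, 8 residual degrees of freedom and the default filter on low counts. Benjamini-Hochberg adjustment ran over all 18730 genes tested, while 17340 genes had no read in any library. Alternatives were DESeq2 size factors, DESeq2 1.42.0, limma-voom 3.58.1 with quality weights, other filters, a replicate block, a fit restricted to the compared groups and leaving out each library. The omission of PBS 3 with EV400 3 and the ratio to Pecam1 were added after seeing the data.

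The 10 genes and the other lists were chosen with earlier results of these data known. Named beyond the 10 are, by a fixed rule, the called genes of each list, up to 3 with the smallest p per list, and the 5 genes most like Pecam1, Cdh5, Tie1 and Tek, Vegfa or Plvap. Flt4 is named outside this rule. Of the gene identifiers, 45679 matched RefSeq, and 7 of the 10 genes had a promoter entry. Intervals cover 95%.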

Additional observations from a re-analysis of the deposited data

How the results depend on the processing

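Over the 6 comparisons, the log2 fold changes of the 10 genes gave 1200 values under 20 alternatives. Of these 1139 kept their direction and their side of the threshold, 1 became a call (Kdr for PBS against normal, described above) and 60 changed sign. The changes of sign touched 24 of 60 fold changes, each at most 0.21 on the log2 scale as reported, and their cause was not tested. For PBS against normal they were Tek (0.0033 by limma-voom, 0.0014 with no filter, 0.00057 at a CPM minimum of 1, -0.072 to 0.073 leaving out single libraries) and Tie1 (0.016 by limma-voom, -0.14 to 0.031 leaving out single libraries). For EV200 against PBS they were Pecam1 (0.031 with PBS 3 and EV400 3 omitted, -0.14 to 0.026 leaving out single libraries), Cdh5 (-0.14 to 0.026 leaving out single libraries), Flt1 (-0.0015 to 0.15 leaving out single libraries), Emcn (-0.061 by limma-voom, -0.064 to 0.082 leaving out single libraries), Ehd3 (-0.14 by limma-voom) and Vegfa (-0.058 to 0.20 leaving out single libraries). For EV400 against PBS they were Flt1 (0.086 with PBS 3 and EV400 3 omitted, -0.23 to 0.060 leaving out single libraries), Tek (-0.066 to 0.092 leaving out single libraries), Tie1 (0.083 with PBS 3 and EV400 3 omitted, -0.12 to 0.038 leaving out single libraries), Plvap (-0.029 by limma-voom, -0.0051 at a CPM minimum of 1, -0.091 to 0.12 leaving out single libraries) and Vegfa (-0.046 to 0.13 leaving out single libraries). For EV400 against EV200 they were Pecam1 (0.014 by limma-voom), Kdr (0.055 by limma-voom, 0.10 with PBS 3 and EV400 3 omitted, -0.11 to 0.10 leaving out single libraries) and Vegfa (0.063 with PBS 3 and EV400 3 omitted, -0.18 to 0.087 leaving out single libraries). For EV200 against normal they were Pecam1 (-0.0067 by limma-voom, -0.021 to 0.14 leaving out single libraries), Cdh5 (-0.0096 by limma-voom), Flt1 (-0.13 to 0.016 leaving out single libraries), Emcn (-0.023 to 0.13 leaving out single libraries), Plvap (-0.031 by limma-voom, -0.037 to 0.13 leaving out single libraries) and Vegfa (-0.22 to 0.025 leaving out single libraries). For EV400 against normal they were Pecam1 (0.0070 by limma-voom, 0.019 with PBS 3 and EV400 3 omitted, -0.077 to 0.030 leaving out single libraries) and Tek (-0.028 to 0.083 leaving out single libraries).

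The count of called members was 0 under 138 of 139 alternatives and 1 with PBS 3 and EV400 3 omitted. The number of genes called in the whole table moved much more. For PBS against normal (514 genes) it was 2835 by DESeq2, 6164 by limma-voom, 299 with no filter, 819 at a CPM minimum of 1, 1449 in a fit of these groups alone, 142 with PBS 3 and EV400 3 omitted, and 0 to 2405 leaving out single libraries. For EV200 against PBS (3 genes) it was 45 by DESeq2, 1649 by limma-voom, 0 with the groups alone, 7 with PBS 3 and EV400 3 omitted, and 1 to 6 leaving out single libraries. For EV400 against PBS (15 genes) it was 940 by DESeq2, 2731 by limma-voom, 2 with the groups alone, and 0 to 65 leaving out single libraries. For EV400 against EV200 (1 gene) it was 14 by DESeq2, 145 by limma-voom, and 0 at a CPM minimum of 1, with the groups alone or with PBS 3 and EV400 3 omitted. For EV200 against normal (13 genes) it was 494 by DESeq2, 1098 by limma-voom, 26 at a CPM minimum of 1, 28 with the groups alone, and 2 to 90 leaving out single libraries. For EV400 against normal (0 genes by edgeR) it was 35 by DESeq2 and 1481 by limma-voom. The joint test (12 genes) gave 1726 by DESeq2, 6634 by limma-voom and 1 to 409 leaving out single libraries. The cause was not tested.

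With the replicate number as a block, edgeR called 0 genes for PBS against normal, 0 for EV200 against PBS, 10 for EV400 against PBS, 0 for EV400 against EV200, 6 for EV200 against normal and 0 in the joint test, and 0 of the 10 members in each. No label says that the numbers pair the libraries. Deviations of same-numbered libraries from their group means correlated between -0.39 and 0.34. With 3 libraries a group, such correlations cannot decide whether a pairing exists. Of the 9 calls in the endothelial lists for PBS against normal, 0 remained with the block and 5 with no filter.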
